A study of Rattus norvegicus with 8 samples.

Results

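The genes described here belong to the cell division cycle, and they were read in rat brain tissue 48 hours after an injection into the striatum. The list holds 10 genes: Ccnd1, Ccnd2, Ccna2, Ccnb1, Cdk1, Top2a, Mki67, Mcm6, Pcna and Rrm2. A probe set was a member if the platform annotation gave it a single symbol from this list, whatever its intensity. This gave 13 probe sets for 9 genes, of 31042 probe sets on the array. Rrm2 was not read, because both probe sets annotated to it carry the symbol of a related gene as well.

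The tested samples were 4 arrays of brain tissue from adult male Wistar rats of 250 to 300 g with a baculovirus vector, 50000000 particles in 5 µl, injected at 2 sites of the striatum after its inactivation under 254 nm ultraviolet light for 1 hour. The control samples were 4 arrays of the same kind of tissue after 5 µl of phosphate-buffered saline (PBS). The strain field is empty for PBS replicate 2, whose source label does name Wistar. The design text counts 7 rats and places PBS in the opposite striatum, while no label ties an array to a rat, so the 8 arrays may share animals and the p-values measure the spread between these samples. No age beyond adult is stated.

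Cells divide by passing through G1, S, G2 and mitosis under cyclin-dependent kinases, each of which needs a cyclin partner. D-type cyclins drive G1, when the retinoblastoma protein is phosphorylated and E2F factors switch on genes for DNA synthesis. Cyclin A serves S phase and G2, and cyclin B with Cdk1 starts mitosis. Adult neurons have left the cycle, whereas microglia, oligodendrocyte precursors, endothelial cells and the progenitors of the subventricular zone, which borders the striatum, can divide, and needle injury is a known stimulus for glial division.

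Values are array intensities on a linear scale, already scaled per array as deposited. Array medians of log2(intensity + 16) lay between 5.74 and 5.85, and arrays correlated at r between 0.979 and 0.987 over all probe sets. The striatal genes Ppp1r1b, which encodes DARPP-32, and Penk, the enkephalin precursor, measured 1193 ± 131 and 1497 ± 165 after inactivated baculovirus and 1152 ± 180 and 1615 ± 144 after PBS (SD, n = 4 each). Of 9 striatal neuron markers, 2 averaged higher and 7 lower after inactivated baculovirus (median log2 fold change -0.10), and Gad1, the enzyme that makes GABA, was lower without overlap at 1053 ± 27.4 against 1205 ± 103 (limma adjusted p = 0.785). Of 3 cortical neuron markers, Slc17a7 was read at 1034 ± 162 against 915 ± 309 and Neurod6 at 191 ± 23.4 against 209.7 ± 35.2, while Tbr1 was below the 40th percentile of level at 11.2 ± 7.76 against 12.3 ± 1.10. Ttr, a choroid plexus gene, had an intensity of 47.7 on PBS replicate 4, while the remaining 7 arrays ranged over 1563 to 1968. Without that array the log2 fold changes of the member probe sets ran from -0.10 to 0.27, and the members that moved most were Cdk1, at 0.17, and Ccnd1 probe set 1383075_at, at 0.22.

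No difference between inactivated baculovirus and PBS passed the test for any member. Of 13 member probe sets, 0 passed a limma adjusted p of 0.05, where 0.0% of all 31042 probe sets passed. At an unadjusted p under 0.05 the count was 0 of 13, beside 6.19% of all probe sets. The smallest unadjusted p among members was 0.219, for a probe set of Top2a (limma adjusted p = 0.857). The groups overlapped for all 13, while they did not overlap for 3.42% of all probe sets. The median log2 fold change was 0.03 over the members, with a range from -0.11 to 0.19, and 0.02 over all probe sets, whose middle 50% ran from -0.07 to 0.10. The mean was higher after inactivated baculovirus for 12 of 13 member probe sets, against 56.1% of all probe sets, and this count was 6 of 13 after centring each array on its median and 9 of 13 after quantile normalization. It was also 6 of 13 without baculovirus replicate 1, without PBS replicate 1 or without PBS replicate 2.

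**Figure D1:**
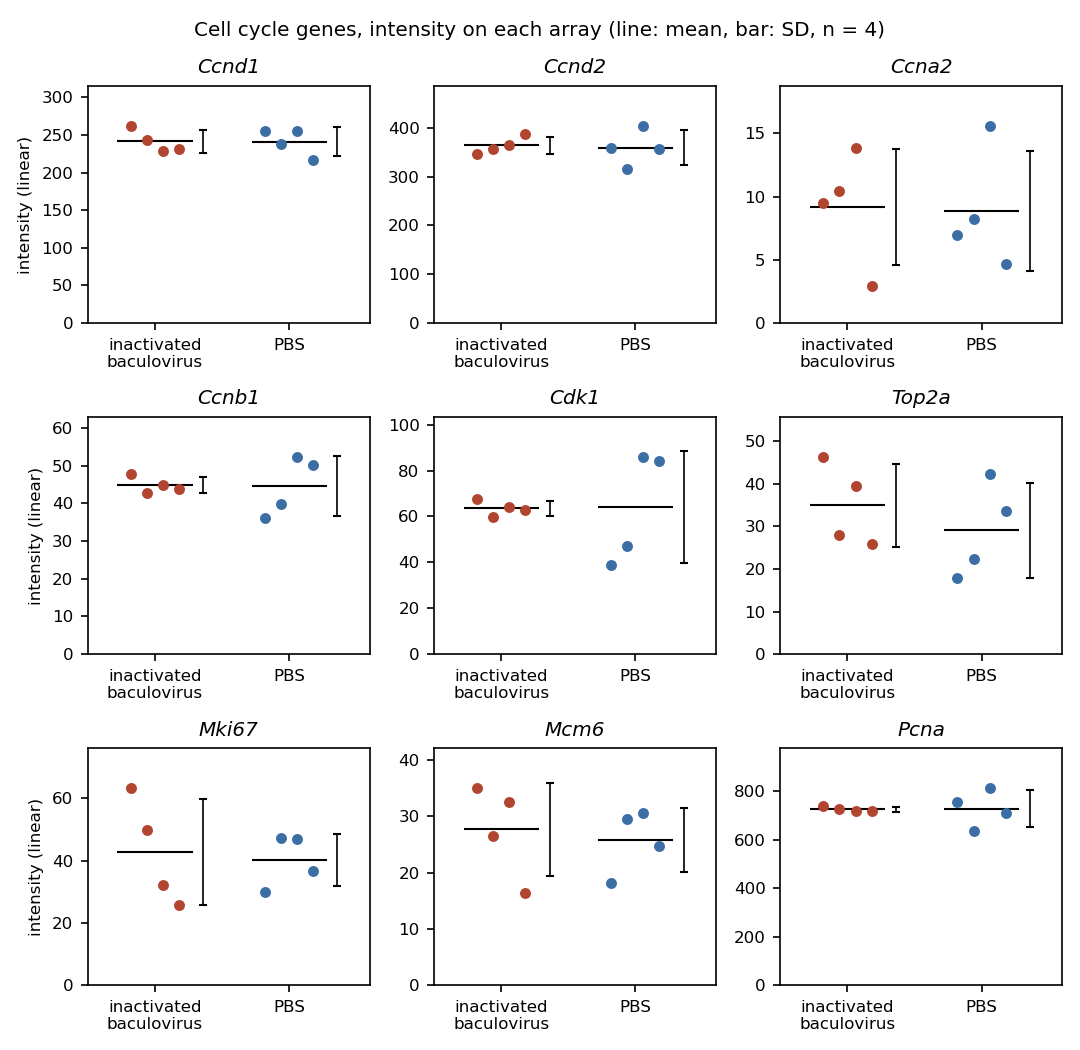
Intensity (linear scale) of the 9 cell cycle genes on each of 8 arrays, with the probe set of highest mean for each gene. Points are arrays, in red after inactivated baculovirus and in blue after PBS, lines are means and bars are SD (n = 4). The groups overlap in all 9 panels, and for Cdk1 the PBS arrays lie on both sides of the 4 baculovirus arrays.

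How large a change the data leave room for was read from the 95% intervals of the limma fit. Its log2(intensity + 16) scale shrinks the changes of dim probe sets. For 12 of 13 probe sets the whole interval of the main fit lay within 1.5-fold in either direction. With a pseudocount of 1 this held for 8 of 13, the widest bounds being 0.510 and 1.99-fold. In the plain test, which uses each probe set's own variance, it held for 10 of 13. There the widest bounds were 0.684 and 1.67-fold, and Cdk1, Mki67 and a Top2a probe set lay outside. With 1 array left out it held for 11 to 13, with bounds down to 0.691 and up to 1.67-fold. It held for all 13 with quantile normalization, median centring, robust variance or the beta-actin covariate. With a pseudocount of 64 it also held for all 13, but that scale shrinks the changes of dim probe sets further and so says little about them. In the main fit the exception was the brighter Top2a probe set, 1388650_at, whose interval reached 1.53-fold. The narrowest bounds of that fit belonged to Ccnd1, Ccnd2 and Pcna, and its lowest bound for any member was 0.756-fold, for Mki67.

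**Figure D2:**
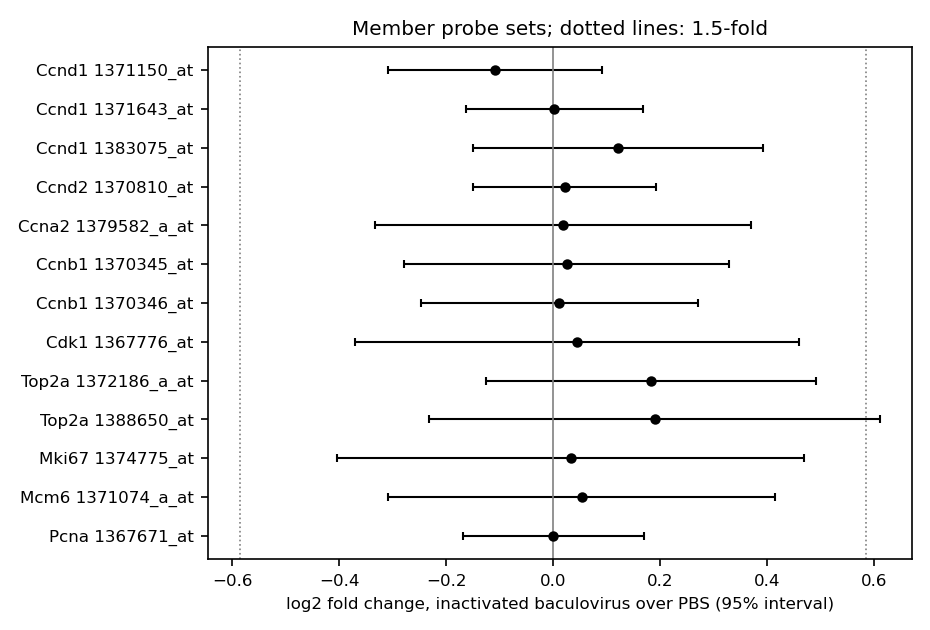
Log2 fold change of inactivated baculovirus over PBS for the 13 member probe sets, with 95% intervals from the limma fit over 31042 probe sets. The solid line marks no change and the dotted lines 1.5-fold. All 13 intervals cross 0, and the interval of Top2a probe set 1388650_at passes the upper dotted line, at 1.53-fold.

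The D-type cyclins bind Cdk4 and Cdk6 and start the cycle from G1. Ccnd2, which encodes cyclin D2, measured 345, 357, 365 and 387 on baculovirus replicates 1 to 4, against 358, 316, 404 and 357 on PBS replicates 1 to 4. All 4 baculovirus arrays lay between the lowest and the highest PBS array. The log2 fold change was 0.02 ± 0.08 (SE), with an interval of 0.901 to 1.14-fold (limma adjusted p = 0.982). Ccnd1, which encodes cyclin D1, is read by 3 probe sets. The brightest measured 263, 244, 229 and 231 on the baculovirus arrays, against 255, 238, 256 and 216 on the PBS arrays. Its groups overlapped almost fully, and its fold change had an interval of 0.893 to 1.12-fold (limma adjusted p = 0.998).

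The other Ccnd1 probe sets had opposite signs, with log2 fold changes of -0.11 ± 0.09 and 0.12 ± 0.12 (SE). The first was -0.17 without PBS replicate 1 and -0.06 without PBS replicate 2. The second was 0.04 without PBS replicate 2, 0.20 without baculovirus replicate 4 and 0.22 without PBS replicate 4. Probe set 1371150_at averaged 88.3 ± 4.83 after inactivated baculovirus and 96.6 ± 10.3 after PBS, and probe set 1383075_at 93.4 ± 11.4 and 85.0 ± 15.5 (SD, n = 4 each). The probe sets of this gene did not move together over the 8 arrays: Pearson's r was -0.125, -0.192 and -0.146 and Spearman's rho -0.143, 0.0238 and -0.0714 for the 3 pairs (exact permutation p of r = 0.768, 0.644 and 0.726, and of rho = 0.752, 0.977 and 0.882), and r without the 2 arrays farthest from the median was 0.0917, 0.335 and -0.0256. These 3 pairs belong to 9 relations between single probe sets, over which the adjusted p of r was 0.768 for each and that of rho 0.967, 0.977 and 0.977. The variation of Ccnd1 between arrays thus depends on the probe set read.

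Genes of DNA replication came next in the cycle. Pcna encodes the sliding clamp that holds DNA polymerase on its template, and it also serves DNA repair in cells that do not divide. It measured 740, 726, 719 and 717 after inactivated baculovirus, against 755, 633, 815 and 709 after PBS. The baculovirus arrays sat in a narrow band inside the PBS range, and the interval of the fold change was 0.890 to 1.12-fold (limma adjusted p = 0.999). Mcm6, a subunit of the replicative helicase, measured 35.1, 26.6, 32.6 and 16.4, against 18.1, 29.6, 30.6 and 24.8 after PBS. Both the highest and the lowest array were baculovirus arrays, and the log2 fold change was 0.05 ± 0.16 (SE, limma adjusted p = 0.976). Ccna2, which encodes cyclin A2 of S phase and G2, was the 1 member below the 40th percentile of level, an intensity of 26.4. Its values were 9.46, 10.5, 13.9 and 2.96, against 6.93, 8.20, 15.6 and 4.66 after PBS. At this level the array gives little information on the gene, and the groups overlapped.

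Mki67 encodes the Ki-67 protein, the usual stain for dividing cells. It measured 63.5, 49.9, 32.3 and 25.9 on the baculovirus arrays, against 30.1, 47.4, 47.0 and 36.6 on the PBS arrays. The baculovirus arrays held both the highest and the lowest value, and their SD on the log2 scale was 0.42, beside 0.22 in the PBS arrays. The log2 fold change was 0.03 ± 0.20 (SE), with an interval of 0.756 to 1.38-fold (limma adjusted p = 0.990). Top2a, which encodes the topoisomerase that untangles sister chromatids, is read by 2 probe sets. The brighter, 1388650_at, measured 46.5, 28.1, 39.5 and 25.9, against 17.9, 22.4, 42.4 and 33.7 after PBS. The other, 1372186_a_at, measured 37.0, 36.5, 26.6 and 28.03, against 20.3, 28.8, 22.4 and 34.5. PBS replicate 1 was the lowest array in both, and the log2 fold changes of 0.19 ± 0.19 and 0.18 ± 0.14 (SE) did not pass (limma adjusted p = 0.900 and 0.857). The 2 probe sets followed each other only weakly over the arrays (r = 0.350, exact permutation p = 0.382; rho = 0.357 with an exact permutation p of 0.389; adjusted over the 9 relations 0.768 and 0.967), and r was -0.462 without baculovirus replicate 1 and PBS replicate 1.

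Cdk1, the kinase that starts mitosis, and Ccnb1, which encodes its partner cyclin B1, had nearly equal group means but moved together from array to array. Cdk1 measured 67.8, 59.8, 63.97 and 63.0 after inactivated baculovirus, against 38.9, 47.1, 86.1 and 84.1 after PBS. The 4 baculovirus arrays fell in the gap between the lower and the upper pair of PBS arrays. The SD on the log2 scale was 0.06 in the baculovirus arrays and 0.46 in the PBS arrays. The log2 fold change was 0.05 ± 0.19 (SE, limma adjusted p = 0.985), with an interval of 0.774 to 1.38-fold. In the plain test, which uses the probe set's own variance, the SE was 0.23 and the interval was not within 1.5-fold. Ccnb1 had the same shape in its brighter probe set, with 47.8, 42.7, 44.8 and 43.8 after inactivated baculovirus and 36.04, 39.9, 52.4 and 50.2 after PBS. Its log2 fold change was 0.01 ± 0.12 (SE, limma adjusted p = 0.993). The other Ccnb1 probe set measured 32.6, 29.7, 30.7 and 22.5, against 23.3, 21.8, 34.3 and 33.7, and had a log2 fold change of 0.03 ± 0.14 (SE, limma adjusted p = 0.989).

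Ccnb1 and Cdk1 put the 8 arrays in the same order of level. Pearson's r was 0.986 (exact permutation p = 2.5e-05) and Spearman's rho 1.00 (exact permutation p = 5e-05), each the smallest p that all pairings of the 8 arrays can give. Adjusted over the 36 pairs of members, these were 0.000893 and 0.00179. With the extremes of Ccnb1, PBS replicates 1 and 3, left out, r was 0.965, and it was 0.978 within the 4 baculovirus arrays and 0.996 within the 4 PBS arrays. Among 18624 other probe sets above the 40th percentile of level, the Ccnb1 probe set ranked 1 in likeness to Cdk1, and Cdk1 ranked 1 in likeness to Ccnb1. The other Ccnb1 probe set followed Cdk1 less closely (r = 0.813 with an exact permutation p of 0.0107; rho = 0.881 with an exact permutation p of 0.00724), and over the 9 relations between single probe sets the adjusted p was 0.0503 for r and 0.0326 for rho. Leaving out baculovirus replicate 4 and PBS replicate 2, its lowest 2 arrays and the farthest from its median level, gave r = 0.979.

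The pair of mitotic genes was the 1 pair of members of 36 past the adjusted threshold, and without baculovirus replicate 3 a second passed, Mki67 with Mcm6 (r = 0.961, exact permutation test, adjusted p = 0.0214; r = 0.764 and adjusted p = 0.207 with all 8 arrays). The next pairs were Ccnb1 with the brighter Top2a probe set (r = 0.862, rho = 0.857, exact permutation p = 0.00670 and 0.0107, adjusted 0.121 and 0.129) and Cdk1 with the same probe set (r = 0.806, rho = 0.857, exact permutation p = 0.0161 and 0.0107, adjusted 0.193 and 0.129). Without PBS replicates 1 and 3 their r was 0.719 and 0.582. The second Top2a probe set did not follow either gene in this way, with r = 0.315 for Ccnb1 (exact permutation p = 0.443, rho 0.167 with exact permutation p = 0.703) and 0.331 for Cdk1 (exact permutation p = 0.426, rho 0.167 with exact permutation p = 0.703), adjusted over the 9 relations to 0.768 for r and 0.967 for rho in both cases. Without baculovirus replicate 1 and PBS replicate 1, r was -0.319 and -0.198.

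**Figure D3:**
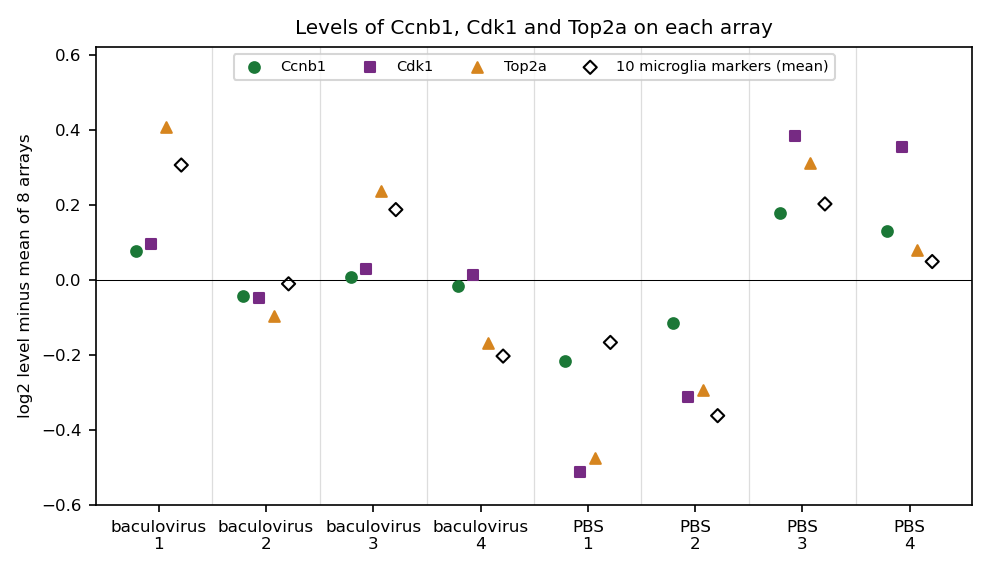
Log2(intensity + 16) of Ccnb1, Cdk1 and Top2a (brightest probe sets) on each of 8 arrays after subtracting the gene's mean over the arrays, with the mean of 10 microglia markers as open diamonds. Arrays of inactivated baculovirus are on the left and PBS arrays on the right. Ccnb1 and Cdk1 are lowest on PBS replicates 1 and 2 and highest on PBS replicates 3 and 4, and Top2a is high where the microglia markers are high.

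Genes for mitosis are known to share promoter elements, the CCAAT box and the cell cycle homology region (CHR), while E2F sites are known from genes of the G1 to S step. RefSeq promoter windows of build GRCr8, 250 bases before to 50 after the annotated start, were on hand for 6 of the 9 members read. They were searched on both strands for CCAAT, for the CHR letters TTTGAA, and for the E2F letters TTTCGCGC, TTTGGCGC, TTTCCCGC and TTTGCCGC. The windows of the 2 genes that moved together and of Top2a are shown. Whether shared letters relate to shared movement over the arrays was not tested. Capitals mark matches, and a match on the other strand reads ATTGG or TTCAAA.
Cdk1, chr20:19265043-19265342, plus strand: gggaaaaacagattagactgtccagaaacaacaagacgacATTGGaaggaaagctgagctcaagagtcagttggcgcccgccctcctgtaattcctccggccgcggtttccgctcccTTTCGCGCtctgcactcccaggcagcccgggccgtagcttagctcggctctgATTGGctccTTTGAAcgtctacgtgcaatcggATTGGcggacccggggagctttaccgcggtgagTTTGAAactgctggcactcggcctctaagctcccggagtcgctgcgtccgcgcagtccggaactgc
Ccnb1, chr2:33655176-33655475, minus strand: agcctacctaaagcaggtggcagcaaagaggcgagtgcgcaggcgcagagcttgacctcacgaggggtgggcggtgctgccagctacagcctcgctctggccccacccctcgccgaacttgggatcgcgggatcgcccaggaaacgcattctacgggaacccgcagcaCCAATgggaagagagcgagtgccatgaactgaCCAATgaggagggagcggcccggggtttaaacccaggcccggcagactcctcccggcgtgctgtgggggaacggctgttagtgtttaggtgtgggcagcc
Top2a, chr10:84473044-84473343, minus strand: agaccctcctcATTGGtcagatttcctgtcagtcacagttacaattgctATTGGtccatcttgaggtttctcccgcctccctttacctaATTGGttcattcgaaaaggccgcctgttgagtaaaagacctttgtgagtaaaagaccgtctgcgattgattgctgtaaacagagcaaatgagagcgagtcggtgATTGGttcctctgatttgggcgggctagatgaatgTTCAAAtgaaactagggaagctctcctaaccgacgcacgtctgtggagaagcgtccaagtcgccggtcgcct

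A CCAAT match was found in all 6 windows and in 37.5% of 33469 rat promoter windows of the same length. Cdk1 held 3, Ccnb1 2, Top2a 4, Mki67 4, Mcm6 2 and Pcna 1. In Cdk1 the nearest matches to the start began 81 and 49 bases before it, and in Ccnb1 82 and 50 bases before it, counting from the base just upstream of the start. Their orientation differed: the Cdk1 matches were on the other strand, as ATTGG, and the Ccnb1 matches on the strand of the gene. The CHR letters were found in Cdk1, Top2a and Mki67, 3 of 6 windows, beside 18.3% of all windows. The Ccnb1 window holds no match for TTTGAA, the only CHR letters searched, so a CHR in another spelling would have been missed. The E2F letters were found in Cdk1 and Mcm6, 2 of 6, beside 2.14% of all windows. In Mcm6 the 2 E2F matches overlap each other on opposite strands, and in Mki67 1 CHR match overlaps a CCAAT match. Mki67, with 4 CCAAT and 2 CHR matches, had r = 0.328 with Ccnb1 and 0.223 with Cdk1 over the 8 arrays (exact permutation p = 0.424 and 0.582). These are matches of letters and not sites shown to be bound.

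**Figure D4:**
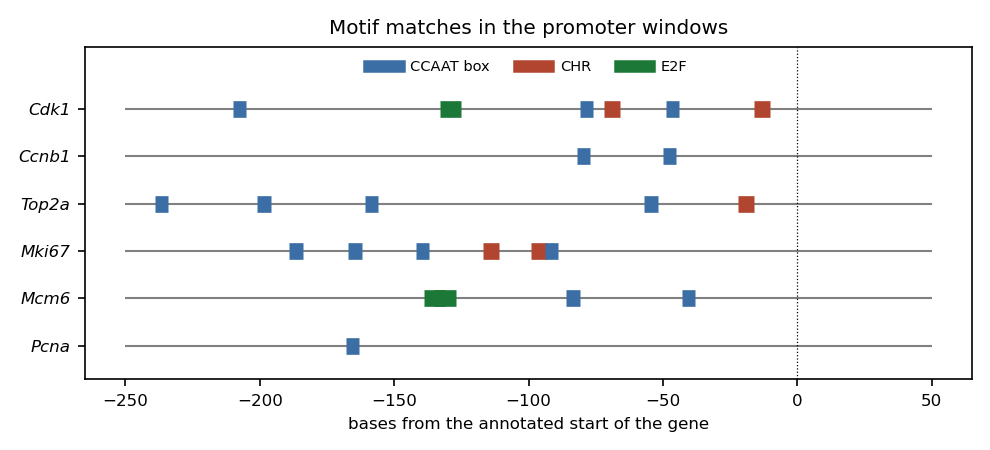
Positions of CCAAT (blue), CHR (red) and E2F (green) letter matches in the promoter windows of 6 members, on either strand, in bases from the annotated gene start (dotted line). All 6 windows hold a CCAAT match, Cdk1, Top2a and Mki67 hold CHR letters, and Cdk1 and Mcm6 hold E2F letters.

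Markers of the cells that can divide were read beside the members. In bulk tissue, fewer cells of a type and less RNA per cell cannot be told apart. All 10 microglia markers were above the 40th percentile of level, and their summed intensity ran from 2102 to 2995 on the baculovirus arrays and from 1818 to 2846 on the PBS arrays. After inactivated baculovirus 9 of these markers averaged higher and 1 lower, with 0 past the threshold and a median log2 fold change of 0.17. Monocyte and macrophage markers had 5 of 7 higher and summed to between 1082 and 1818, against 936 to 1741. Oligodendrocyte precursor markers had 1 of 6 higher and summed to between 1430 and 1612, against 1515 and 1684. Markers of subventricular neuroblasts and progenitors had 3 of 8 higher and summed to between 780.2 and 863, against 743 and 920.2, while endothelial markers had 5 of 7 higher and summed to between 1003 and 1081, against 942 and 1049. No marker of these lists passed, the lowest limma adjusted p being 0.794. The groups did not overlap for 1 microglia marker and for Ptprz1, a precursor marker, lower at 380 ± 26.2 against 429 ± 19.1 (SD, n = 4 each). At a limma unadjusted p under 0.05, 1 endothelial marker was higher, and 1 precursor and 1 subventricular marker were lower. Of all probe sets 3.42% did not overlap, 6.19% had an unadjusted p under 0.05 and 56.1% averaged higher.

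The brighter Top2a probe set followed the microglia markers over the 8 arrays more closely than any other relation of a member with an array measure that was computed. Pearson's r was 0.911, with an exact permutation p of 0.00288, and rho was 0.929, with an exact permutation p of 0.00223. Adjusted over 45 relations, of 9 members with 5 measures, these were 0.129 and 0.1004 and did not pass, nor did any other of the 45. Leaving out the extremes of the markers, baculovirus replicate 1 and PBS replicate 2, gave r = 0.912, and r was 0.969 within the baculovirus arrays and 0.858 within the PBS arrays. The same probe set ran against the excess of the 3' over the 5' control probe set of beta-actin (log2), a measure of RNA and labelling quality (r = -0.763, exact permutation p = 0.0298; rho = -0.833 with an exact permutation p of 0.0154; adjusted 0.441 and 0.331), with r = -0.886 without baculovirus replicate 4 and PBS replicate 2. Mcm6 had nearly the same relation to this excess (r = -0.733, exact permutation p = 0.0402, adjusted 0.441). For every member r with it was negative, from -0.763 to -0.00147. The 2 measures themselves ran in opposite directions over these arrays. The beta-actin excess was highest on baculovirus replicate 4 and PBS replicate 2 (0.72 and 0.62), where the mean centred microglia level was lowest (-0.20 and -0.36). It was lowest on baculovirus replicate 1 (0.36), where the microglia level was highest (0.31). The part of either measure in the Top2a values was not tested. The second Top2a probe set did not follow the microglia markers (r = 0.239, exact permutation p = 0.556; rho = 0.190 with an exact permutation p of 0.665; adjusted over the 9 relations 0.768 and 0.967), and r was -0.245 without baculovirus replicate 1 and PBS replicate 1.

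The wider pathway was read through 107 other cell cycle genes of 120 listed in 7 roles, each by its brightest probe set. Means were higher after inactivated baculovirus for 65 and lower for 42, where 56.1% of all probe sets had a higher mean. None passed the limma adjusted threshold, 6 had an unadjusted p under 0.05, which is 5.61% beside 6.19% of all probe sets, and the groups did not overlap for 4, which is 3.74% beside 3.42%. The median log2 fold change was 0.03. The 5.61% and the 3.74% were near the shares of the whole array.

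Genes that load and run the replication fork, the partners of Mcm6 and Pcna, averaged higher for 23 of 29 and lower for 6. Of all probe sets 56.1% averaged higher. The median log2 fold change of the 29 genes was 0.09 beside 0.02 over all probe sets. After median centring 21 of these genes were higher and 8 lower, with a median of 0.06 beside -0.01, and without PBS replicate 1 the median was 0.05. Mcm2, another helicase subunit, measured 41.1, 31.5, 38.4 and 26.4, against 23.8, 23.0, 23.3 and 25.2 after PBS. Its groups did not overlap, and its log2 fold change of 0.33 ± 0.12 (SE) did not pass (limma adjusted p = 0.785). Gmnn, which encodes geminin, the inhibitor of helicase loading, measured 40.8, 35.8, 36.7 and 39.7, against 31.1, 29.2, 35.7 and 25.5. Its groups did not overlap either, but by a very narrow margin, 35.78 on baculovirus replicate 2 against 35.72 on PBS replicate 3. The log2 fold change was 0.23 ± 0.11 (SE, limma adjusted p = 0.810). Mcm5, a helicase subunit below the 40th percentile of level, averaged 29.5 ± 7.87 against 15.4 ± 13.0 (SD, n = 4 each), with overlap through PBS replicate 3 at 33.1 (limma adjusted p = 0.794). The mean centred level of the 29 genes was 0.10, 0.06, 0.04 and 0.01 on the baculovirus arrays, against -0.13, -0.05, 0.0023 and -0.04 on the PBS arrays, and no test was made of this level.

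Of 43 genes of mitosis, 24 averaged higher and 19 lower, or 20 and 23 after median centring, with a median log2 fold change of 0.01. Aurkb, which encodes the Aurora B kinase of the chromosomal passenger complex, measured 50.8, 45.6, 37.0 and 49.3, against 35.6, 33.3, 36.8 and 27.9. The lowest baculovirus array was just above the highest PBS array, and the log2 fold change was 0.32 ± 0.12 (SE, limma adjusted p = 0.785). The kinesin genes Kif20a and Kif23, which act in cytokinesis, leaned the other way, at -0.45 ± 0.15 and -0.30 ± 0.18 (SE, limma adjusted p = 0.764 and 0.835). Kif20a averaged 7.97 ± 4.51 against 16.7 ± 5.48 and Kif23 20.9 ± 9.34 against 28.7 ± 5.01 (SD, n = 4 each), both below the 40th percentile of level.

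Among 7 other cyclins and kinases of G1, 4 had a higher and 3 a lower mean. Ccne2, which encodes cyclin E2, measured 39.9, 12.3, 27.4 and 28.2, against 42.3, 58.3, 62.8 and 26.8, with overlapping groups and a log2 fold change of -0.57 ± 0.23 (SE, limma adjusted p = 0.794). Cdk2, the partner of cyclin E, stood at 0.15 ± 0.13 and Ccnd3, which encodes cyclin D3, at 0.08 ± 0.07 (SE). Retinoblastoma and E2F genes had 6 of 11 higher, with Rbl2, a retinoblastoma relative, at -0.20 ± 0.12 (-0.09 without baculovirus replicate 4), Tfdp2, a partner of E2F factors, at 0.09 ± 0.09, and E2f6, a repressor of the family, at 0.09 ± 0.08 (SE). None of these 6 genes passed (limma adjusted p between 0.794 and 0.891).

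Inhibitors of cyclin-dependent kinases hold cells out of the cycle. Of 7 read, 3 averaged higher and 4 lower, or 2 and 5 after median centring. Cdkn1a, which encodes p21, measured 105, 98.5, 89.5 and 92.8, against 76.0, 102, 64.4 and 22.4. PBS replicate 4, the array low in Ttr, was also the lowest here, and the log2 fold change was 0.56 ± 0.27 (SE, limma adjusted p = 0.810), or 0.23 without that array. Cdkn1b, which encodes p27, measured 259, 269, 264 and 256, against 271, 280, 318 and 269.5. Its groups were apart by a narrow margin, at -0.11 ± 0.07 (SE, limma adjusted p = 0.841). Cdkn2b, which encodes p15, was below the 40th percentile, at 12.4 ± 7.39 against 4.36 ± 1.04 (SD, n = 4 each, limma adjusted p = 0.779).

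Genes of nucleotide supply, the role of the unread Rrm2, had 4 of 5 higher, or 1 of 5 after median centring, and a median log2 fold change of 0.01. Tyms, thymidylate synthase, stood at -0.11 ± 0.14, Dck, deoxycytidine kinase, at 0.04 ± 0.10 and Tk1, thymidine kinase, at 0.02 ± 0.14 (SE). Targets of p53, the factor that halts the cycle after DNA damage, had 1 of 5 higher, with Zmat3 at -0.11 ± 0.07, Ccng1, which encodes cyclin G1, at -0.11 ± 0.08 and Mdm2, which encodes the ubiquitin ligase of p53, at 0.07 ± 0.08 (SE). None of these passed (limma adjusted p between 0.844 and 0.992).

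**Figure D5:**
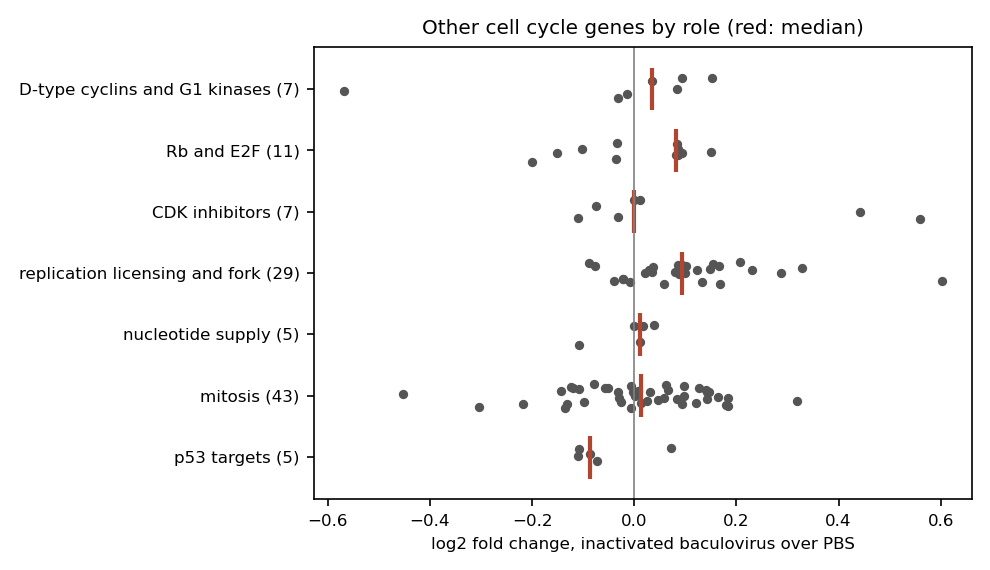
Log2 fold change of inactivated baculovirus over PBS for 107 other cell cycle genes in 7 roles. Each point is 1 gene, red bars are medians, and the number of genes read stands beside each role. Genes of replication licensing and the fork lie mostly right of 0, with a median of 0.09, and no gene passed the adjusted threshold.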

How the data were processed

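The authors deposited intensities on a linear scale. The submitters' processing notes name GCOS and GCRMA, and no source used here states which of them gave these values. With 2% trimmed at each end, array means lay between 100.021 and 100.023. Which of 2 labelling kits served which array is not stated either.

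Control probe sets (57) were left out. Fits used log2(intensity + 16) of all 31042 others without a level filter, with limma 3.58.1 in R 4.3.3 (variance trend, no block, two-sided, Benjamini-Hochberg over all, threshold 0.05), and were tested on simulated data. A gene stands for its brightest single-symbol probe set, and symbols checked by gene number in a RefSeq table changed 0 times. With 4 arrays a group the median 95% interval reached 0.257 (log2) to either side.

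All members are named, and of each other list the 3 genes of smallest p. The members and lists were chosen with earlier results of these data known. Correlations between members and between probe sets were chosen after seeing the data. Alternatives were pseudocounts, normalization, level filters, array weights, variance settings, a plain test (the methods' t-test), a replicate block, a beta-actin covariate, and leaving out each array.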

Additional observations from a re-analysis of the deposited data

Results flagged for a closer look

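In 68 groups of 4 arrays, 2 held an array far from the other 3 in units of the group's range, while chance flags about 1 group in 20. For Ccnd1 probe set 1383075_at, baculovirus replicate 4 stood at 76.4 and the other baculovirus arrays between 98.1 and 101, a gap of 0.9075 of the range. For Kif20a, PBS replicate 3 stood at 24.9 and the other PBS arrays between 13.5 and 14.8, a gap of 0.867 of the range.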

How the results depend on the processing

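No setting gave a member, another listed cell cycle gene or any probe set an adjusted p under 0.05. At an unadjusted p under 0.05 the 1921 probe sets became 1251 and 912 with level filters at the 40th and 60th percentile and 1278 (without baculovirus replicate 2) to 2824 (without PBS replicate 4) with 1 array left out, the member probe sets stayed at 0, and the other cell cycle genes, 6 in number, were 1 at the 60th percentile and 4 to 7 with 1 array left out. The methods' t-test gave 0 probe sets at 2-fold with p under 0.05, and 0 after Benjamini-Hochberg adjustment. Fold changes near 0 turned sign without any call. With median centring they were -0.026 for Ccnd1 probe set 1371643_at, -0.0068 for Ccnd2, -0.010 for Ccna2, -0.0033 and -0.017 for Ccnb1 probe sets 1370345_at and 1370346_at, -0.028 for Pcna and -0.012 for Tk1. With quantile normalization they were -0.013 for Ccna2, -0.019 and -0.024 for the same Ccnb1 probe sets and -0.0071 for Tk1, and with the beta-actin covariate -0.0037 for Pcna and -0.0061 for Tk1. The cause was not tested. With 1 array left out the range was -0.046 to 0.030 for Ccnd1 probe set 1371643_at, -0.035 to 0.079 for Ccnd2, -0.070 to 0.15 for Ccna2, -0.047 to 0.097 and -0.058 to 0.073 for the Ccnb1 probe sets, -0.12 to 0.18 for Cdk1, -0.13 to 0.18 for Mki67, -0.040 to 0.19 for Mcm6, -0.063 to 0.056 for Pcna, -0.039 to 0.12 for Dck and -0.057 to 0.10 for Tk1. Top2a stayed higher, at 0.06 to 0.33 and 0.11 to 0.27, and the remaining Ccnd1 probe sets kept their signs, at -0.17 to -0.06 and 0.04 to 0.22. Named genes of the other lists that kept their sign but moved by over 1.5 times were Cdk2 (0.07 to 0.20), Ccnd3 (0.04 to 0.10), Rbl2 (-0.29 to -0.09), Tfdp2 (0.04 to 0.15), E2f6 (0.03 to 0.13), Cdkn1a (0.23 to 0.77), Cdkn1b (-0.13 to -0.06), Tyms (-0.23 to -0.04), Kif23 (-0.44 to -0.20), Zmat3 (-0.17 to -0.06), Ccng1 (-0.18 to -0.05) and Mdm2 (0.02 to 0.10). The correlation of Ccnb1 with Cdk1 ran from 0.974 to 0.992 with 1 array left out and was 0.966 with quantile normalization, while with the other Ccnb1 probe set r was 0.813 and missed the adjusted threshold (0.0503) while rho, 0.881, passed it (0.0326). Between 1 and 2 pairs of members passed with 1 array left out, the second, Mki67 with Mcm6 (r = 0.961), without baculovirus replicate 3.

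Same-numbered arrays of the 2 groups did not deviate together (correlations of -0.0031 to 0.020). This gave no sign that the numbers pair the samples, but it cannot show whether any arrays came from the same rat. With the replicate block 0 probe sets and 0 members passed. The median of the retinoblastoma and E2F list, 0.08, was -0.03 with the filter at the 60th percentile, which leaves 7 of 11 genes, and with all 11 kept it was 0.02 with array weights and -0.04 to 0.08 with 1 array left out, the lowest without PBS replicate 1. The cause was not tested. The number of arrays and the low intensity of Ccna2, Mcm6, Top2a and Ccnb1 limit what could be seen.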

Other observations

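On the log2 scale the SD was lower in the baculovirus arrays than in the PBS arrays for 10 of 13 member probe sets, and for 59.1% of all 31042 probe sets. Pcna had 0.02 and 0.15, Cdk1 0.06 and 0.46, and the brighter Ccnb1 probe set 0.05 and 0.19, while Mki67 had 0.42 and 0.22 and Mcm6 0.29 and 0.21. The lowest of the 8 arrays was a PBS array for 10 of 13, and for 59.4% of all probe sets. With 4 arrays a group this difference in spread was not tested.

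Among 13898 single-symbol probe sets above the 40th percentile, those most like a member over the 8 arrays were named by Pearson's r, as a description. For Top2a they were Fermt3, which encodes the integrin activator kindlin-3 (0.957), Nckap1l, an actin regulator (0.954), and Anxa3, which encodes annexin A3 (0.952). For Mki67 they were Btbd8 (0.968), Znrf2, a ubiquitin ligase gene (0.962), and Clint1, a clathrin adaptor gene (0.961). For Ccnd1 they were Snx9, a sorting nexin gene (0.976), Plxnc1, a semaphorin receptor gene (0.941), and Hps6 (0.940), and for Ccnd2 Snrpd2, a spliceosome gene (0.990), Serf2 (0.979) and Scp2, a sterol carrier gene (0.9752). With quantile normalization these 12 values ran from 0.794 to 0.998.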
